A study of Mus musculus with 4 samples.

Results

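The transcripts of 6 genes whose own products repress or degrade mRNA were examined as targets of Argonaute: Gigyf1, Ddx6, Cnot6, Rc3h2, Zc3h12c and Fmr1. Every feature that the authors' table lists under these gene names was taken, which gave 17 of 2548 features. Gigyf1, Rc3h2 and Fmr1 had 4 features each, Ddx6 had 3, and Cnot6 and Zc3h12c had 1 each. The genes had been selected on the deposited log2 fold changes, p-values and means of this comparison, so the differences below are descriptions and carry no test of their own.

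Ago2 PAR-CLIP had been done in B cell progenitor lines made from C57BL/6 mouse fetal liver at E14.5 of embryonic development and transformed with the retroviral vector pMSCV-v-Abl, which carries the Abelson kinase. The method feeds cells a photoreactive nucleoside, here 500 µM 4-thiouridine for 5 h, crosslinks RNA to protein at 365 nm, and sequences the RNA held by the precipitated protein. Of the 4 libraries, 2 were wild type and 2 were Bim3'UTRmut/mut, homozygous for a mutated 3' UTR of the apoptosis gene Bim; the viral kinase and the nucleoside were common to both genotypes. Transformed lines can differ from one another in ways unrelated to genotype, and whether a line was clonal was not given in the sources used here.

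A microRNA in Argonaute recognises its target mainly through its seed, and the Argonaute partner TNRC6 (GW182) then brings in the CCR4-NOT complex, which shortens the poly(A) tail and recruits the helicase DDX6 to block translation and promote decapping. CNOT6 is a deadenylase of that complex. GIGYF1 joins the cap-binding protein 4EHP, which competes with the translation machinery for the mRNA cap. RC3H2 (Roquin-2) binds stem-loops in 3' UTRs and ZC3H12C (Regnase-3) is an RNase of the CCCH zinc finger family, both known from immune cells, and FMRP, the product of Fmr1, is a translational regulator that binds RNA and associates with Argonaute. The question here is how strongly Ago2 was bound to the transcripts of such factors, and whether this differed between the genotypes.

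The deposited table gives no values per library, but whole reads per library could be recovered from its means for 2548 of 2548 features. All 2548 held at least 5 reads in 1 library or more. A feature with fewer in both libraries of 1 genotype was therefore listed through the other genotype. The wild-type libraries are called Wa and Wb and the mutant libraries Ma and Mb, with the sides read from the sign of the deposited fold changes. Depth differed widely, from 160207 reads in the listed features in Wa to 14539 in Mb, so that 1 read is worth 0.272 normalized reads (reads divided by the library's size factor) in Wa and 2.21 in Mb. Beside a library's value, an exact 95% Poisson interval is given, covering counting error alone; by its upper end a count of 0 allows up to 3.40 (Wb), 5.97 (Ma) or 8.16 (Mb) normalized reads.

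Library Mb stood apart from the other 3 over the whole table. The correlation of log2 normalized reads across all features (genes of a library are no replicates) was 0.74 to 0.83 among Wa, Wb and Ma, and 0.14 to 0.27 between Mb and any of them. Of the 12 B lineage markers listed, 3 had features (Ikzf1, Il7r and Rag1), with summed normalized reads of 100.5 (Wa), 54.3 (Wb), 134.3 (Ma) and 0 (Mb). Of the 5 stromal markers, Pdgfra and Vim had features, with 4.08, 7.37 and 9.71 normalized reads in Wa, Wb and Ma and 201.2 in Mb. None of the erythroid, hepatocyte, myeloid or T cell markers listed had a feature. On these markers Mb goes against its label as a library of B cell progenitors. Every mutant mean and every deposited fold change below includes it, so a difference between genotypes that rests on Mb is a difference of a library whose label is in doubt. For each member the log2 ratio of group means (0.5 added to normalized reads) or the voom value is therefore given without Mb too, and the part that the marker difference plays was not tested. Voom, a limma method run on the recovered reads, adds 0.5 to raw reads, so where a shallow library holds 0 its value reflects depth. The ratio without Mb sets Ma alone against wild type, so where Ma holds 0 its size reflects the 0.5 added. RNA levels were not used, so more Ago2 on a transcript cannot be told apart from more of that transcript, nor fewer cells of a type from less RNA per cell.

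The 17 features were mostly weak, and they lay on both sides of no difference. Their median deposited mean was 3.86 normalized reads, against 4.85 for all features, and 5 of the 17 lay at or above that general median. By the deposited log2 fold change (mutant over wild type), 8 lay above 0 and 9 below; their median was -0.06, that of all features -0.07, and 47.5% of all features lay above 0. Of the 17, 0 passed an adjusted p of 0.05 (Benjamini-Hochberg adjustment over all features), as did 0.0% of the table, and the lowest adjusted p among them was 0.531. At an unadjusted p under 0.05, 2 of the 17 were higher and 0 lower in the mutant, where 7.57% and 0.903% of all features were (8.48% in either direction); by voom 1 of the 17 had an unadjusted p under 0.05, beside 3.1% of all features. Nothing is read from these counts, since this contrast was in view when the genes were picked.

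**Figure D1:**
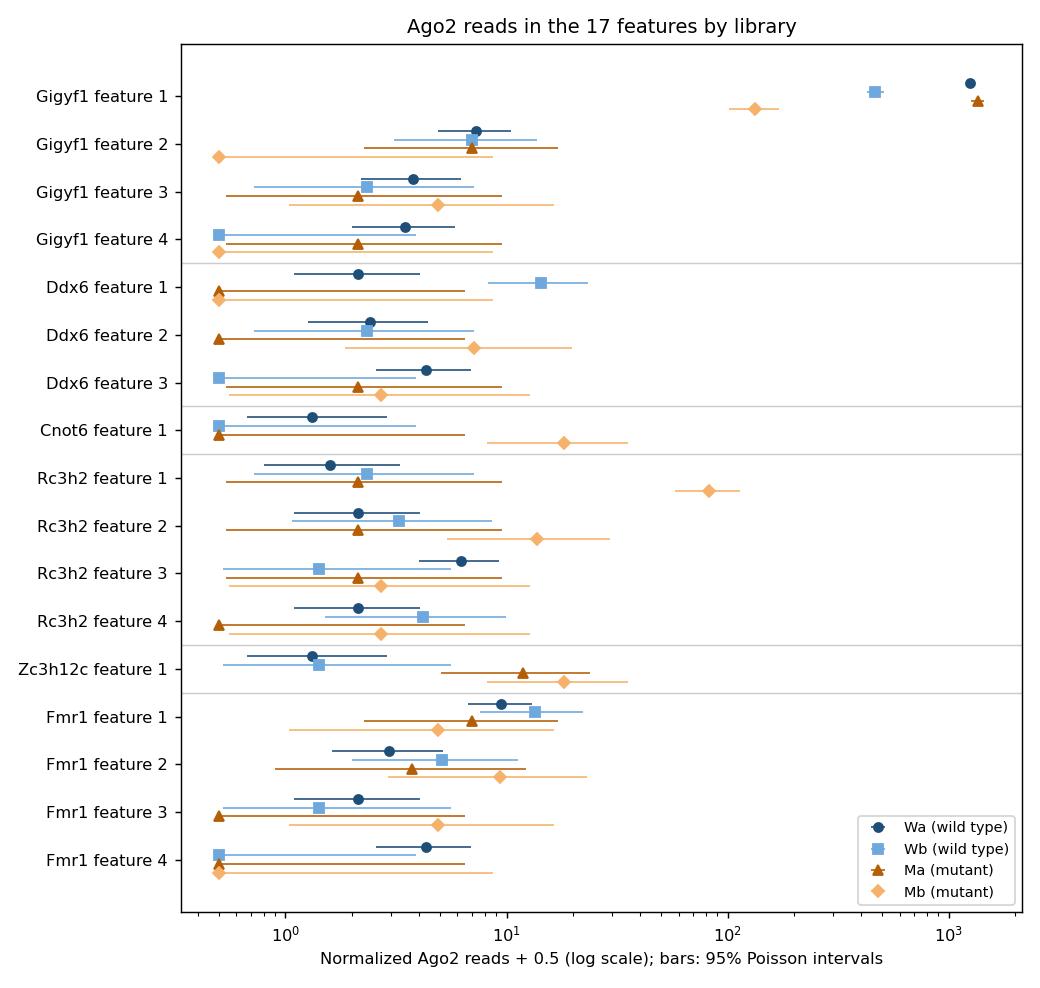
Normalized Ago2 reads plus 0.5 (log axis) in each of the 17 features, 1 point per library with its exact 95% Poisson interval; circles and squares are the wild-type libraries Wa and Wb, triangles and diamonds the mutant libraries Ma and Mb. Gigyf1 feature 1 lies above the other 16 features in every library, and in Zc3h12c both mutant libraries lie above both wild-type libraries.

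The strongest Ago2 feature of the whole table lay in Gigyf1. Gigyf1 feature 1 (Entrez gene 57330; features of a gene are numbered here by falling mean) had a deposited mean of 798.6 normalized reads, 164.7 times the median feature and above the next, a feature of the chaperone gene Dnajb9 at 650.6. These are reads per feature, not per length. Its reads numbered 4575 (Wa), 505 (Wb), 836 (Ma) and 60 (Mb), which made it the highest feature in Wa and in Ma, the fourth in Wb (rank 4) and rank 18 in Mb. Of all reads in listed features it took 2.86% in Wa (exact binomial 95% interval 2.77 to 2.94), 1.30% in Wb (1.19 to 1.42), 3.39% in Ma (3.17 to 3.63) and 0.413% in Mb (0.315 to 0.531).

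Depth was ample at this feature, and the genotypes nevertheless could not be separated. It stood at 1243 normalized reads in Wa (interval 1207 to 1280), 465 in Wb (425 to 508), 1353 in Ma (1263 to 1448) and 133 in Mb (101 to 171). Ma was the highest library and Mb the lowest, with the wild-type libraries between them. Wa exceeded Wb by 2.67 times and Ma exceeded Mb by 10.2 times, while the genotype means, 854 in wild type and 743 in the mutant, differed by 1.15 times. The deposited log2 fold change was -0.17 (SE 1.06, derived from the deposited p as all SE below). The direction turned with the library left out: the log2 ratio of the group means, with 0.5 added to normalized reads, was -0.20 with all libraries, 0.66 without Mb, 0.67 without Wa, -0.74 without Wb and -2.68 without Ma.

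The other Gigyf1 features were minor. Feature 2 stood at 6.79 (Wa), 6.45 (Wb), 6.47 (Ma) and 0 (Mb) normalized reads. The first 3 of these libraries were level, and its deposited log2 fold change of -0.74 (SE 1.28) came with a 0 in Mb that allows 8.16. Its log2 ratio of group means was -0.93 with all libraries and -0.03 without Mb. Feature 3 stood at 3.26, 1.84, 1.62 and 4.42 normalized reads in Wa, Wb, Ma and Mb, with a log2 fold change of 0.12 (SE 1.28), and feature 4 at 2.99, 0, 1.62 and 0, with -0.41 (SE 1.63). Without Mb their log2 ratios of group means changed sign, to -0.53 and 0.09. At this depth no difference was detectable in either. Feature 1 took 99.0% (Wa), 98.2% (Wb), 99.3% (Ma) and 96.8% (Mb) of the gene's reads, so the concentration on it was common to all 4 libraries although the level was not. Over the 39 genes with 4 or more features, the highest feature took a median of 47.4% of the gene's summed mean, and Gigyf1, with 98.9%, was rank 1.

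**Figure D2:**
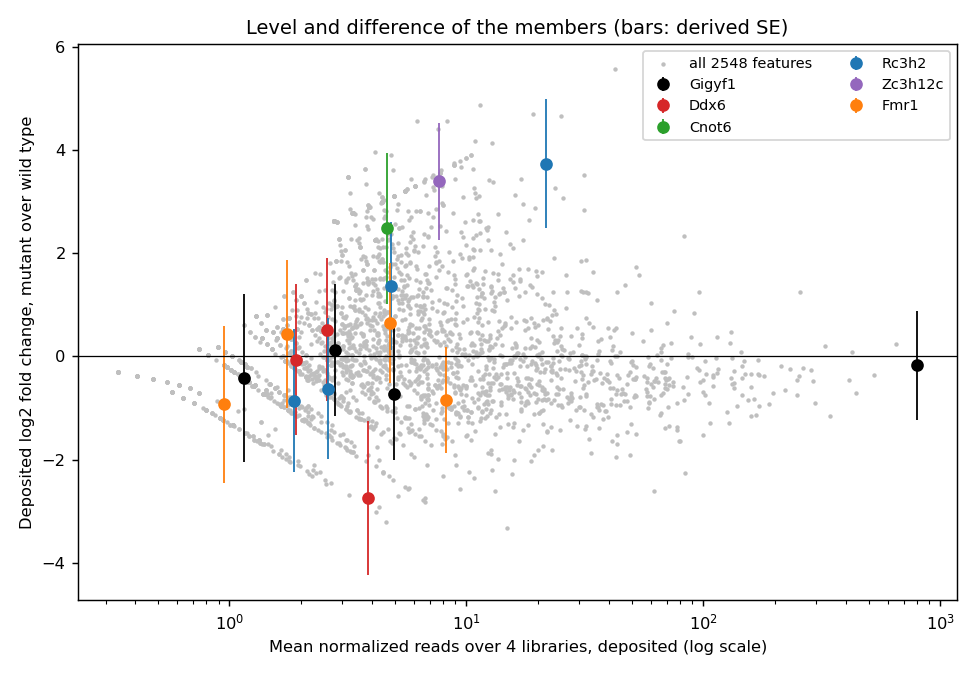
Deposited log2 fold change, mutant against wild type, over the deposited mean (log axis) for all 2548 features in grey and the 17 features in colour by gene, with bars of 1 derived SE. Gigyf1 feature 1 lies at the right edge near 0, Rc3h2 feature 1 and Zc3h12c lie at 3.74 and 3.39, and Ddx6 feature 1 at -2.74.

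Ddx6, the helicase that microRNA complexes recruit through CCR4-NOT, had 3 weak features (Entrez gene 13209) that did not move alike. At feature 1 there were 6 reads in Wa, 15 in Wb and 0 in both mutant libraries, or 1.63 (interval 0.598 to 3.55), 13.8 (7.73 to 22.8), 0 (0 to 5.97) and 0 (0 to 8.16) normalized reads. Both mutant libraries lay below both wild-type libraries, as in 20.1% of all features. The wild-type libraries themselves did not overlap in their counting intervals, Wb being the high one. Its deposited log2 fold change was -2.74 (SE 1.49, adjusted p = 0.592). The wild-type mean of 7.72 lies between the upper limits of the zeros in Ma and Mb, and Wa alone lies under both, so no fold is given. Without Mb, the log2 fold change of limma's voom on the recovered reads was -2.45, against -2.26 with all libraries, and without Wb it was -0.90.

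The other Ddx6 features had deposited values nearer 0, and a difference between them and feature 1 was not tested. Feature 2 stood at 1.90 (Wa), 1.84 (Wb), 0 (Ma) and 6.63 (Mb) normalized reads, and feature 3 at 3.80, 0, 1.62 and 2.21. Mb was the high library of feature 2 and Wa of feature 3, and the groups overlapped in both. Their deposited log2 fold changes were 0.52 (SE 1.38) and -0.06 (SE 1.46). The log2 ratio of group means of feature 2 was 0.69 with all libraries and -2.25 without Mb, and that of feature 3 was 0.01 and -0.18. The -2.25 rests on the 0 in Ma, which allows 5.97 normalized reads, above both wild-type libraries. Of the reads in Ddx6, feature 1 took 22.2% in Wa (6 of 27, exact interval 8.62 to 42.3) and 88.2% in Wb (15 of 17, 63.6 to 98.5). Feature 1 is first by mean through its reads in Wb, so a high share there follows from the numbering. The intervals also take reads as independent, though duplicates may be counted, so no difference between the wild-type libraries is read from these shares. With 1 read in Ma and 4 in Mb over the whole gene, the mutant shares are not informative.

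Cnot6, the deadenylase subunit, had 1 feature (Entrez gene 104625), and its difference came from library Mb. Its reads numbered 3 (Wa), 0 (Wb), 0 (Ma) and 8 (Mb), or 0.815 (interval 0.168 to 2.38), 0 (0 to 3.40), 0 (0 to 5.97) and 17.7 (7.64 to 34.9) normalized reads. Mb was high and the mutant library Ma was as low as wild type, so the groups overlapped. The deposited log2 fold change was 2.48 (SE 1.47, adjusted p = 0.687). By voom it was 2.02 with all libraries and -0.01 without Mb, and the log2 ratio of group means was 3.36 and -0.86. Without Mb, 3 reads in Wa are all that is left, so neither value shows whether the genotypes differ.

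Rc3h2, which encodes Roquin-2, had 4 features (Entrez gene 319817), of which the strongest was read almost wholly in Mb. Feature 1 counted 4 (Wa), 2 (Wb), 1 (Ma) and 37 (Mb) reads. Normalized, these are 1.09 (interval 0.296 to 2.78), 1.84 (0.223 to 6.66), 1.62 (0.0410 to 9.02) and 81.8 (57.6 to 112.8), which made it rank 46 in Mb. Ma lay between the wild-type libraries, so the groups overlapped although the deposited log2 fold change was 3.74 (SE 1.25, adjusted p = 0.531). By voom it was 3.08 with all libraries and 0.75 without Mb, and the log2 ratio of group means was 4.43 and 0.11.

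Mb was the highest library at Rc3h2 features 1 and 2 but not at features 3 and 4. Feature 2 stood at 1.63, 2.76, 1.62 and 13.3 normalized reads in Wa, Wb, Ma and Mb, again highest in Mb, with a deposited log2 fold change of 1.37 (SE 1.24). Without Mb its log2 ratio of group means went from 1.56 to -0.35. Feature 3 stood at 5.71, 0.921, 1.62 and 2.21 normalized reads, highest in Wa, and feature 4 at 1.63, 3.68, 0 and 2.21, highest in Wb. Each held 1 read in Mb, and their log2 fold changes were -0.63 (SE 1.37) and -0.86 (SE 1.40). That 1 read allows up to 12.3 normalized reads, above every other library at both features, so a higher level in Mb could not be told there. The log2 ratio of group means of feature 3 was -0.66 with all libraries and -0.85 without Mb, and that of feature 4 was -0.98 and -2.66. The -2.66 rests on the 0 in Ma, which allows 5.97 normalized reads, above both wild-type libraries. Feature 1 took 82.2% of the Rc3h2 reads in Mb (37 of 45, exact interval 67.9 to 92.0) but 10.8% in Wa (4 of 37, 3.03 to 25.4). The interval in Mb also lay above that in Wb (2 of 10, 2.52 to 55.6), while 3 reads in Ma left its share undetermined. The markers that set Mb apart, with 0 reads in the B lineage features and 201.2 normalized reads in the stromal ones, stand beside the values of Rc3h2 and Cnot6, and their part in them was not tested.

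**Figure D3:**
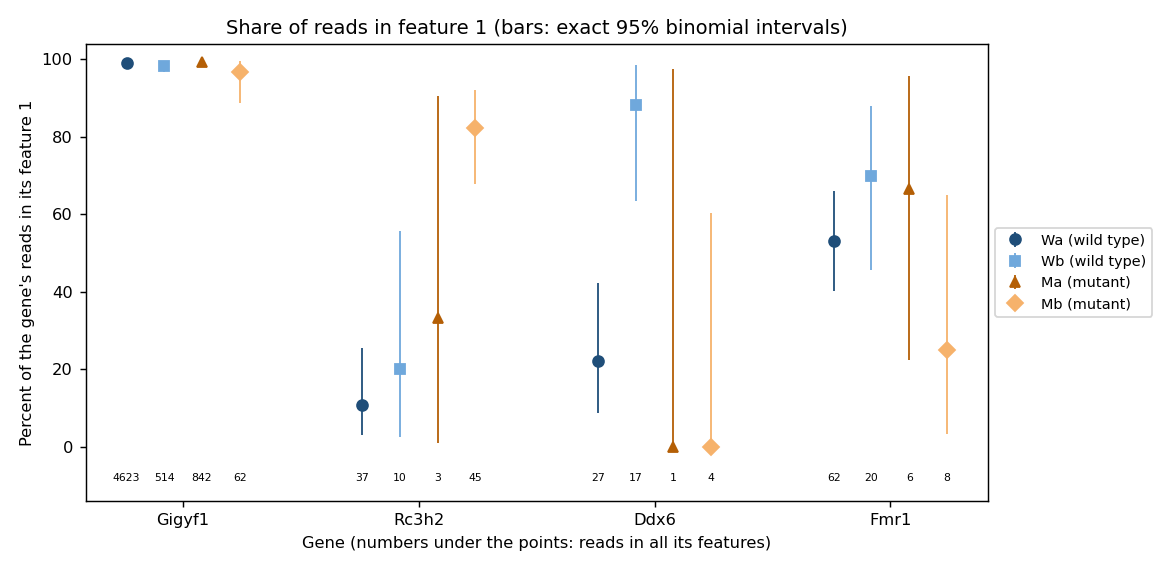
Percent of each gene's reads that lay in its feature 1, by library, with exact 95% binomial intervals, for the 4 genes with several features; the small numbers are the reads in all features of the gene. The share is above 96% in all 4 libraries for Gigyf1, and 82.2% in Mb against 10.8% in Wa for Rc3h2. Rc3h2 feature 1 is first by mean through its reads in Mb, so its high share there follows from the numbering.

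Zc3h12c, which encodes the RNase Regnase-3, was the member in which both mutant libraries were the high ones. Its 1 feature (Entrez gene 244871) counted 3 (Wa), 1 (Wb), 7 (Ma) and 8 (Mb) reads. These are 0.815 (interval 0.168 to 2.38), 0.921 (0.0233 to 5.13), 11.3 (4.56 to 23.3) and 17.7 (7.64 to 34.9) normalized reads, from 19 reads in all. Both mutant libraries lay above both wild-type libraries, as in 13.1% of all features, although the intervals of Wb and Ma overlap. The deposited log2 fold change was 3.39 (SE 1.13, adjusted p = 0.531). By voom the log2 fold change was 3.82 with all libraries, and 3.56 (Mb), 4.21 (Ma), 3.45 (Wa) and 3.97 (Wb) without the library named. This feature reached the 5 reads that every listed feature has only in Ma and Mb. It was thus listed through its mutant reads, so these values describe the same 19 reads and are no support for a difference.

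Fmr1, which encodes FMRP, had 4 features (Entrez gene 14265), the strongest of which was read in all 4 libraries. Feature 1 counted 33 (Wa), 14 (Wb), 4 (Ma) and 2 (Mb) reads, or 8.97 (interval 6.17 to 12.6), 12.9 (7.05 to 21.6), 6.47 (1.76 to 16.6) and 4.42 (0.535 to 16.0) normalized reads. Both mutant libraries lay below both wild-type libraries, as in 20.1% of all features, but their counting intervals overlapped those of the wild type. The deposited log2 fold change was -0.84 (SE 1.02), and by voom it stayed below 0 without each library in turn, from -1.06 without Wa to -0.50 without Wb, with -0.56 without Mb.

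The other Fmr1 features had deposited values on both sides of 0, and a difference between them and the first was not tested. Feature 2 stood at 2.45, 4.61, 3.24 and 8.84 normalized reads in Wa, Wb, Ma and Mb, with a deposited log2 fold change of 0.64 (SE 1.16), and feature 3 at 1.63, 0.921, 0 and 4.42, with 0.43 (SE 1.43). Mb was the high library in both, and without it the log2 ratio of group means went from 0.70 to -0.11 at feature 2 and from 0.61 to -1.83 at feature 3. The -1.83 rests on the 0 in Ma, which allows 5.97 normalized reads, above both wild-type libraries. Feature 4 held 14 reads in Wa and 0 in every other library, with a log2 fold change of -0.93 (SE 1.52), and its wild-type mean of 1.90 normalized reads lies under what zeros in Ma and Mb allow; its log2 ratio of group means was -2.26 with and without Mb. Summed over its features, Fmr1 stood at 16.8 (Wa), 18.4 (Wb), 9.71 (Ma) and 17.7 (Mb) normalized reads. Ma alone lay below both wild-type libraries, and Mb lay between them. The total in Ma rests on 6 reads and that in Mb on 8, so no difference is read from these totals.

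Summing the features of each gene gave another view of the same reads. Rc3h2 totalled 10.1, 9.21, 4.86 and 99.5 normalized reads in Wa, Wb, Ma and Mb, and Ddx6 7.34, 15.7, 1.62 and 8.84. Gigyf1 totalled 1256, 473, 1363 and 137. Mb was the high library of Rc3h2 and the low one of Gigyf1. Ma was the low one of Ddx6, but on 1 read.

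Of the 17 features, 3 differed between genotypes by more than both the Wa to Wb and the Ma to Mb differences on the log2 scale, against 19.5% of all features. They were Zc3h12c, Ddx6 feature 1, where both mutant libraries are 0, and Fmr1 feature 1. Each of these reached 5 reads in 1 genotype alone, so no difference is read from them. The highest library was Mb for 8 of the 17, Wa for 5, Wb for 3 and Ma for 1, while 36.8% of all features were highest in Mb. Reads were 0 in Ma for 6 of the 17 and in Mb for 4, against 23.7% and 25.2% of all features.

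**Figure D4:**
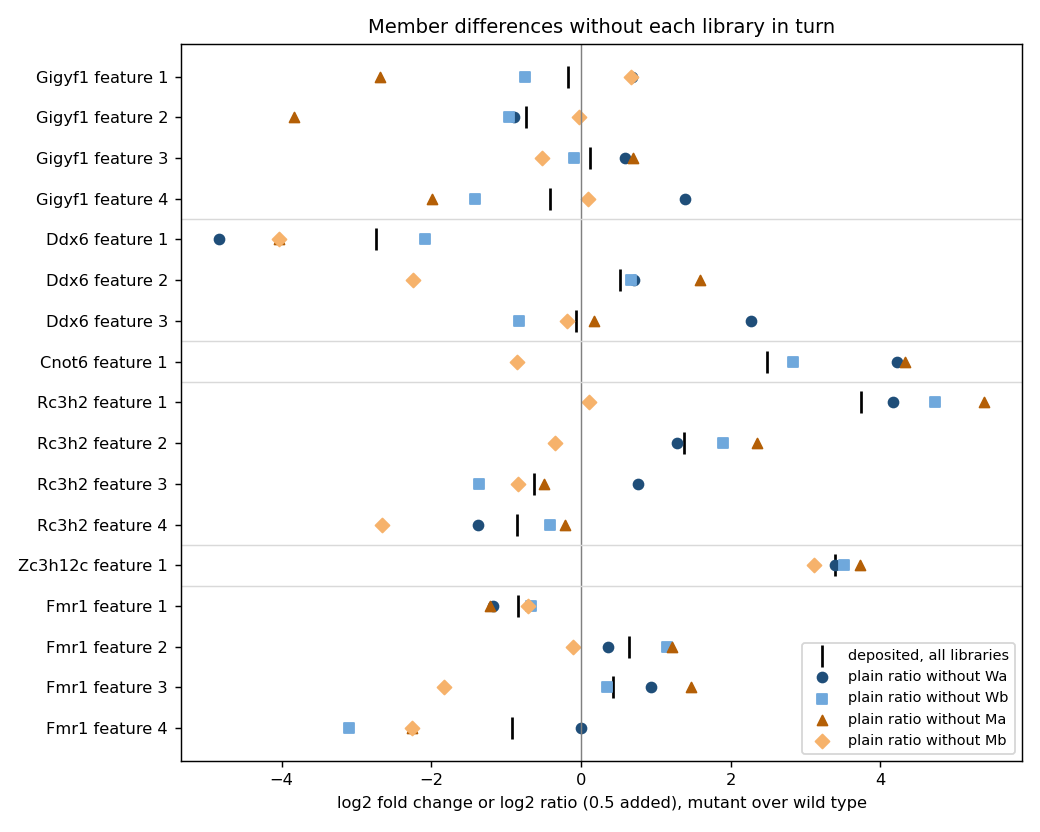
Deposited log2 fold change (black bar) and the log2 ratio of group means of normalized reads, with 0.5 added, leaving out each library in turn (coloured symbols), for the 17 features. Zc3h12c stays between 3.11 and 3.73, while Rc3h2 feature 1 moves from 5.39 without Ma to 0.11 without Mb and Cnot6 from 4.32 to -0.86.

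The members were then set beside the other genes of the same machinery, in 8 lists of 147 genes, of which 44 had 79 features. Without the 6 member genes, the 62 features of the other 38 genes divided evenly by deposited log2 fold change, 31 above 0 and 31 below. At an unadjusted p under 0.05, 3 of these 62 were higher and 0 lower, where 7.57% and 0.903% of all features were, and 0 passed an adjusted p of 0.05. Those 3, one feature each of Dcp2, Igf2bp1 and Ajuba, had reads in Mb alone, so without Mb nothing is left of them. Both mutant libraries lay above both wild-type libraries in 7 of the 62 and below in 14, beside 13.1% and 20.1% of all features.

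Deadenylation genes, which include Cnot6, had 13 features of 9 genes, 6 above and 7 below 0 (median -0.01), none at an unadjusted p under 0.05. Both mutant libraries lay above wild type in 1 and below it in 3, beside 13.1% and 20.1% of all features. Pan3, a subunit of the PAN2-PAN3 deadenylase, stood at 2.72, 12.9, 12.9 and 26.5 normalized reads in Wa, Wb, Ma and Mb, with 1.21 in the authors' deposited table (SE 1.01); its log2 ratio of group means was 1.28 with all libraries and 0.70 without Mb. Cnot7, the other kind of CCR4-NOT deadenylase, had -0.97 (SE 1.42) in the authors' deposited table, from 18, 1, 0 and 1 reads in Wa, Wb, Ma and Mb. Its ratio was -1.09 with all libraries and -2.77 without Mb, where Ma holds 0. That 0 allows 5.97 normalized reads, above Wa at 4.89 and Wb at 0.921. Tob2, an adaptor of the complex, had 3 features at -0.52, -0.29 and 0.07 in the authors' deposited table. The strongest of these, with a mean of 29.0 normalized reads, was the one at -0.29, and the ratio of the one at -0.52 (SE 0.87) was -0.58 with all libraries and -0.42 without Mb. Cnot6 at 2.48 was thus the highest of this list through 8 reads in Mb.

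Decapping and decay genes, which include Ddx6, had 14 features of 5 genes, 8 above and 6 below 0, with a median of 0.17. Both mutant libraries lay above wild type in 1 and below it in 2, beside 13.1% and 20.1% of all features. Dcp2, the decapping enzyme, gave the 1 feature at an unadjusted p under 0.05, with 7 reads, all in Mb, and 2.89 in the authors' deposited table (SE 1.38). A further Dcp2 feature stood at 0.272, 2.76, 1.62 and 17.7 normalized reads, also highest in Mb, and its log2 ratio of group means went from 2.33 to 0.07 without Mb. The strongest of the 3 Dcp2 features was at 0.60 in the authors' deposited table. Dcp1a, its activating partner, had 4 features, at 1.37, 1.26, -0.22 and -1.70 in the authors' deposited table. The one at -1.70 (SE 1.54) stood at 4.89 and 0.921 normalized reads in Wa and Wb and 0 in both mutant libraries. The voom median of the list was 0.40 with all libraries and -0.06 without Mb.

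Translational repressors, which include Gigyf1, had 9 features of 6 genes, 5 above and 4 below 0, with a median of 0.12. The genotypes overlapped in all 9, where both mutant libraries lay above wild type in 13.1% and below it in 20.1% of all features. The partners of Gigyf1 were weakly read: Gigyf2, its paralog, held 9 reads in Wa and 0 elsewhere, and Eif4e2, which encodes 4EHP, stood at 1.63, 0.921, 0 and 4.42 normalized reads. Samd4, a Smaug family repressor, had 7 of its 8 reads in Mb and 2.26 in the authors' deposited table (SE 1.35), and 1 read in Wb is all that is left without Mb. The list of CCCH and Roquin decay factors had features of Rc3h2 and Zc3h12c alone, 3 above and 2 below 0, so it adds no gene to those described.

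FMRP and its partners had 12 features of 5 genes, 6 above and 6 below 0, with a median of -0.11. Nufip2, an FMRP-interacting protein, had 5 features and supplied the lowest values. Its strongest feature stood at 51.1 and 43.3 normalized reads in Wa and Wb and 38.8 and 26.5 in Ma and Mb, with -0.50 in the authors' deposited table (SE 0.69); its log2 ratio of group means was -0.52 with all libraries and -0.28 without Mb. The lowest value, -2.25 (SE 1.50) in the authors' deposited table, came from 5 and 9 reads in Wa and Wb and 0 in the mutant libraries. Both mutant libraries lay below wild type in 4 of the 12 features and above it in 1, beside 20.1% and 13.1% of all features.

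AU-rich element and stability factors had 11 features of 7 genes, 5 above and 6 below 0, with a median of -0.12. Both mutant libraries lay below wild type in 2 and above it in 0, beside 20.1% and 13.1% of all features. Igf2bp1, an mRNA-stabilising protein, had 2 features with 10 and 5 reads, all in Mb, at 3.20 (SE 1.36) and 2.63 (SE 1.40) in the authors' deposited table. Qk, an RNA-binding protein of the STAR family, had a weak feature at -2.03 (SE 1.50) in the authors' deposited table, but its strong one, with a mean of 115.0 normalized reads, was at -0.25.

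The microRNA machinery had 12 features of 7 genes, 6 on each side of 0, with a median of -0.08. Both mutant libraries lay above wild type in 4 and below it in 3, beside 13.1% and 20.1% of all features. Ajuba, a LIM protein of silencing complexes, was read in Mb alone. Ago1 had -1.41 (SE 1.33) in the authors' deposited table and stood at 7.34, 5.53, 3.24 and 0 normalized reads, with a log2 ratio of group means of -1.71, or -0.89 without Mb. Tnrc6a, the GW182 scaffold, had 3 features, at -0.61, 0.45 and 0.82 in the authors' deposited table, and a difference between them was not tested. The strongest, at -0.61, stood at 99.2, 68.2, 50.2 and 57.5 normalized reads in Wa, Wb, Ma and Mb. The one at 0.82 (SE 0.79) stood at 15.8, 17.5, 17.8 and 44.2, and its log2 ratio of group means went from 0.88 to 0.10 without Mb. Of the nonsense-mediated decay and exosome list, Smg1 and Smg6 had 1 feature each below 0, at -1.51 (SE 1.36) and -0.59 (SE 0.95) in the authors' deposited table; without Mb their log2 ratios of group means went from -1.85 to -1.03 and from -0.69 to -0.10.

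**Figure D5:**
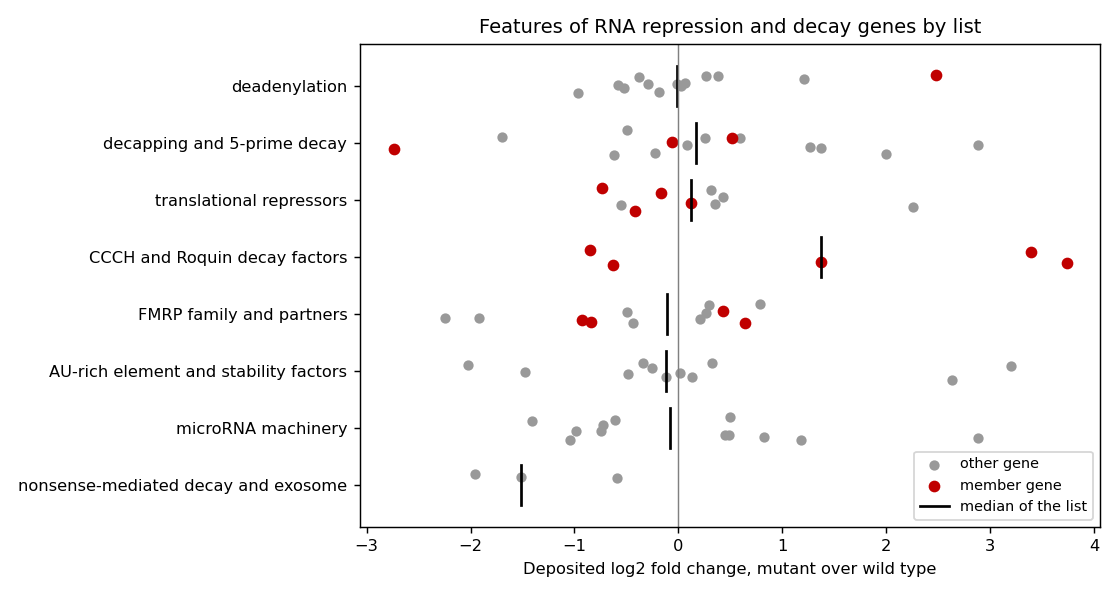
Deposited log2 fold change, mutant against wild type, for every feature of the 8 lists, 1 row per list, with member genes in red, other genes in grey and the list median as a black bar. The medians of 6 lists lie between -0.12 and 0.17; the CCCH and Roquin list, at 1.37, holds member genes alone, and the nonsense-mediated decay list, at -1.51, holds 3 features.

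For the strongest feature of each gene, the 2 most alike features of other genes were found by distance over the 4 libraries of log2(normalized reads + 0.5), centred per feature, among features with at least 20 reads. With 4 libraries and 1424 to 1426 candidates close matches are bound to occur, so these are descriptions. Gigyf1 feature 1 was closest to Ttc9c (distance 0.26) and Nxt2 (0.36), of which Ttc9c stood at 20.1, 7.37, 25.9 and 2.21 normalized reads in Wa, Wb, Ma and Mb. Zc3h12c was closest to Zfp740 at 0.05, with 1.63, 1.84, 19.4 and 28.7 normalized reads, and next to Amer1 at 1.04.

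The features read mainly in Mb shared a neighbour. Rc3h2 feature 1 was closest to Zfp704 (0.84) and Vash2 (0.96), and Cnot6 to Vash2 (0.70) and Ski (0.87), of which Vash2 stood at 88.4 normalized reads in Mb and 1.62 in Ma. Ddx6 feature 1 was closest to Trim33 (0.39) and Rpl15 (1.16), both with 0 reads in Ma and Mb. Fmr1 feature 1 was closest to a feature of Tgfbr2 (0.14), with 23.6, 31.3, 17.8 and 11.1 normalized reads, and to Zfp65 (0.20). The median distance of all candidates ran from 2.08 for Fmr1 feature 1 to 5.34 for Rc3h2 feature 1.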

How the data were processed

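The data were 1 table of the authors' comparison of 2 wild-type and 2 Bim3'UTRmut/mut libraries. Per the file headers, its mean is a signal, reads divided by size factors and averaged over the 4 libraries by the authors; its log2 fold change and unadjusted p-value are as deposited. CASAVA 1.8.2, BWA 0.7.12-r1039 and DESeq2 are named in the submitters' processing notes with builds mm9 and NCBIM37. Settings, feature definition and any removal of PCR duplicates were not given in the sources used here; duplicates may be counted. Feature positions and sequences were not analysed here. The log2 fold changes are shrunken, as read from the values, and direction was taken from the table's name.

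Each mean is a sum of whole reads times 4 library weights. The weights were found from recurring differences between low means, and each feature had exactly 1 solution (100.0%, largest misfit 4.97e-13 normalized reads). Of the 400 lowest distinct means, each shifted slightly, 0 had a solution. That check does not cover strong features such as Gigyf1 feature 1. Size factors by median of ratios over the 1350 features read in all libraries matched the weights to a relative 2.2e-16. The size factors were 3.68 (Wa), 1.09 (Wb), 0.618 (Ma) and 0.452 (Mb), and reads in features 160207, 38804, 24625 and 14539. The split into sides gave the deposited direction in 98.8% of features, and the other splits in 67.4% and 32.4%.

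Benjamini-Hochberg adjustment ran over all 2548 features. SE is the log2 fold change over the normal quantile of its p, assuming a Wald test. Voom (limma 3.58.1, R 4.3.3) and ratios of group means with 0.5 added used the recovered reads. Voom was tested on simulated reads, with changes planted only in features stronger than most members and an equal spread in all libraries. That test does not cover weak features or a library that stands apart as Mb does. P-values rest on 2 libraries a side, which the labels call biological replicates. Symbols came from RefSeq (GRCm38.p6), which 2540 features matched by Entrez identifier. Named genes are all features of the 6 genes, up to 3 features by p of other genes in each list, and the 2 most alike features of each member, printed for the strongest feature of each gene; one such value is not reported here. Members and lists were chosen with earlier results of these data known.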

Additional observations from a re-analysis of the deposited data

How the results depend on the processing

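No feature passed an adjusted p of 0.05 under the deposited p, on features at or above the median mean, or by voom, and none passed 0.1; without single libraries voom passed 0 to 364, the 364 being without Ma, which sets Mb alone against wild type. At an unadjusted p under 0.05 the deposited table held 216 and voom 79. Of the 17 features 8 lay above 0 as deposited, 8 or 9 under other pseudocounts, scalings and voom, and 4 to 12 without each library, the 4 being without Mb by the ratio of group means (8 by voom) and the 12 without Wa. Features that had the deposited sign under every setting tried, voom without each library (added after seeing the data) included, were 4: Ddx6 feature 1, Rc3h2 feature 1, Zc3h12c and Fmr1 feature 1. A kept sign is no support for a difference. Rc3h2 feature 1 went from 4.43 to 0.11 without Mb by the ratio of group means. Ddx6 feature 1 has 0 reads in both mutant libraries, so that ratio could not rise above 0. Without Mb, 8 of 17 did not have it by the ratio of group means and 8 by voom. In the lists 39 features lay above 0, 37 by voom, 21 with 1 feature per gene and 17 at or above the median mean, where fewer features were counted, and 36 to 45 without each library. Scaling by library totals moved the median log2 ratio of all features from -0.08 to 0.06, and trimmed-mean scaling to -0.17. With library totals, the members whose mutant libraries lay outside both wild-type libraries were again 1 above and 2 below. By size factors 13.1% of all features lay above and 20.1% below. The shares under library totals are not given here, so nothing is read from these counts. No paired analysis was possible because the recovered libraries could not be tied to replicate numbers. Of the 17 features 10 had under 20 reads in all, which limits what they can show.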
